A study of Mus musculus with 6 samples.

Results

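Macrophages and monocytes were followed in the lungs of mice that had received either PBS or bleomycin repeatedly, as the small myeloid fraction of a sort for PDGFRA+ fibroblasts. Barcodes were selected on their measured UMI counts. A barcode, the tag that stands for 1 droplet, was kept when it held at least 1000 UMIs (unique molecular identifiers, each standing for 1 captured transcript). It also had to hold at least 3 UMIs of Tyrobp and Fcer1g together and at least 2 of Csf1r, Cd68 and C1qa together, and none of Cd3e, Cd79a or Retnlg. The rule kept 302 of the 16876 barcodes of both libraries, 90 after PBS and 212 after bleomycin. Of the barcodes with at least 1000 UMIs they were 1.50% (95% CI 1.21 to 1.84%) of 5997 after PBS and 2.40% (95% CI 2.09 to 2.74%) of 8826 after bleomycin, by exact Clopper-Pearson intervals. They are called myeloid barcodes here, because the data did not show all of them to be single macrophages or monocytes, as described below for fibroblast RNA.

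Both libraries came from Pdgfra-GFP mice, in which GFP marks cells that express Pdgfra, and both held GFP+ cells sorted from digested lungs of 3 mice that were pooled. The repetitive PBS group received 50 ul of PBS by the oropharyngeal route once a week for 3 weeks, and the repetitive bleomycin group received bleomycin, a drug that injures the alveolar epithelium and is used to induce lung fibrosis, in the same volume, with 1 U/kg in both of the first weeks and 0.5 U/kg in the third. Lungs were taken 2 weeks after the last dose. With 1 library per condition and no replicate, no test between conditions was possible, no SD could be given, and a difference between the libraries cannot be told apart from a difference between the pools of mice. Because a GFP gate was used, the share of myeloid barcodes is a share of the sorted cells and not of the lung. Intervals below are exact 95% intervals and cover counting error only.

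Alveolar macrophages live in the airspace, where they clear surfactant lipid under the control of GM-CSF and PPAR gamma, and express Marco, Ear2 and Chil3. Interstitial macrophages live in the tissue around airways and vessels and typically express complement C1q and MHC class II, and CCR2 marks monocytes that enter from the blood and cells derived from them. After bleomycin injury monocyte-derived macrophages are known to occupy the alveoli and to express genes such as Spp1, Trem2 and Gpnmb.

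The values of the rule genes chose the barcodes and are given as a description. Levels are UMIs per 1000000 (CPM), summed over the myeloid barcodes of a library. Tyrobp, an adaptor of myeloid receptors, was at 951 CPM after PBS and 1478 CPM after bleomycin. Fcer1g, the signalling chain of Fc receptors, was at 1015 and 1041 CPM, and Csf1r, the M-CSF receptor on which macrophages depend, was at 214 and 211 CPM. Cd68, a glycoprotein of late endosomes, was at 127 CPM after PBS and 359 CPM after bleomycin. In reference fibroblasts of the same libraries, Tyrobp was at 0.527 CPM after PBS and 3.91 CPM after bleomycin. Their gap to the myeloid barcodes is fixed by the selection, since they had to hold under 3 UMIs of Tyrobp and Fcer1g together. After PBS 1 barcode held exactly 3 UMIs of Tyrobp and Fcer1g, and after bleomycin 29 did, while 0 and 30 otherwise eligible barcodes fell just outside with 2. At the other limit 14 and 33 barcodes held exactly 2 UMIs of Csf1r, Cd68 and C1qa, and 8 and 59 fell outside with 1.

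The libraries held 64697147 UMIs after PBS and 68354458 after bleomycin. Myeloid barcodes had a median of 13607 UMIs (range 2963 to 41151) after PBS and 6917.5 (range 1026 to 55088) after bleomycin, so that low genes were read less deeply per barcode after bleomycin. Both libraries shared 28 barcode sequences, 0.456% of the PBS barcodes, and none of these was a myeloid barcode.

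A large fraction of the myeloid barcodes also carried RNA of fibroblasts, the cells that were sorted. The fibroblast list (Col1a1, Col1a2, Col3a1, Pdgfra, Dcn, Mfap4, Inmt, Npnt and Sparc) took at least 0.2% of the UMIs in 39 of 90 PBS barcodes (43.3%) and in 128 of 212 bleomycin barcodes (60.4%), and 5 barcodes lay between 0.2% and 0.3%. Reference fibroblasts had medians of 1.34% and 2.31%. Pdgfra itself, the receptor that the GFP reports, was detected in 42 PBS and 76 bleomycin myeloid barcodes. After PBS the barcodes with fibroblast RNA were deeper than the others (median 21676 against 8613 UMIs), and after bleomycin they were shallower (4438.5 against 10050 UMIs). Without them 51 and 84 barcodes were left, or 0.850% (95% CI 0.634 to 1.12%) and 0.952% (95% CI 0.760 to 1.18%) of barcodes, and these intervals overlapped whereas those of all myeloid barcodes did not. Doublets and free RNA cannot be told apart in these tables, and the part of fibroblast RNA in the results below was not tested. The lead values are therefore given for all myeloid barcodes and for those under 0.2%.

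To show the regulatory sequence in front of genes of the 3 groups that the results turn on, the 250 bases before the RefSeq transcription start (GRCm38.p6) are printed for Marco, an alveolar gene, Spp1, the gene with the largest ratio among the listed genes, and Lamp1, a lysosomal gene. Capitals mark GAGGAA, the core letters bound by the myeloid factor PU.1, in Marco (chr1:120505025-120505274, minus strand) and Spp1 (chr5:104434861-104435110, plus strand). In Lamp1 (chr8:13158911-13159160, plus strand) capitals mark TCACGTG, the core of the CLEAR element bound by the TFEB and MITF family.
Marco: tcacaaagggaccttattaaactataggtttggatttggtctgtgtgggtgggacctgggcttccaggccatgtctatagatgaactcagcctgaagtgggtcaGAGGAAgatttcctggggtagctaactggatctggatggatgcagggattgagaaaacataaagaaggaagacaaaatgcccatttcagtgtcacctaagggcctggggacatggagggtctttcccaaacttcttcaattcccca
Spp1: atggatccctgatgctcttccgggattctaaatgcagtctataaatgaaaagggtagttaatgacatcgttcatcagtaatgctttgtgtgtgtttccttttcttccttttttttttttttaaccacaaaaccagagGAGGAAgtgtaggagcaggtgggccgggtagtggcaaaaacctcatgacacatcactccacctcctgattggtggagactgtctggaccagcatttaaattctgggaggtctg
Lamp1: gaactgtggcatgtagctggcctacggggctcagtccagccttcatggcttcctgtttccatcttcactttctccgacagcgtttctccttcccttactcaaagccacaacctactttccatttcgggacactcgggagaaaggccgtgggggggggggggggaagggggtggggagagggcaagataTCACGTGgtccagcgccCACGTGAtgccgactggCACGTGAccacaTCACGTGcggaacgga
Both strands were searched (reverse TTCCTC and CACGTGA), and the motifs do not overlap each other. TCACGTG was found 4 times in the Lamp1 window and in 2 of the 13 lysosome genes with a window (15.4%), against 530 of 8566 genes tested in the myeloid barcodes (6.19%) and 968 of all 27025 windows (3.58%). GAGGAA was found in 7 of 13 lysosome genes (53.8%) and 8 of 12 fibrosis-associated genes (66.7%), against 26.6% of tested genes and 25.9% of all windows. It was also found in 3 of 7 patrolling monocyte genes (42.9%) and 1 of 4 MHC class II genes, and TCACGTG in 0 of 12 fibrosis-associated genes. A match of these letters is a description and not a binding site.

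Alveolar and interstitial genes were compared first. Summed over Marco, Ear2 and Chil3, alveolar genes were at 1012 CPM (95% CI 960 to 1066) after PBS and 1269 CPM (95% CI 1225 to 1315) after bleomycin, a log2 ratio of 0.32 with 10 CPM added to each level, the scale of all ratios below. Summed over C1qa, Mrc1 and Ccr2, interstitial genes were at 1141 CPM (95% CI 1086 to 1198) and 1797 CPM (95% CI 1744 to 1851), a log2 ratio of 0.65 (95% CI 0.57 to 0.73). The interstitial sum was mostly C1qa, at 703 and 1288 CPM, which helped to choose the barcodes, so this sum is a description. In barcodes under 0.2% fibroblast UMIs, however, the log2 ratio of the alveolar sum was -0.07 and that of the interstitial sum was 0.61.

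The alveolar sum was mostly Chil3, and its genes did not share a direction. Marco, a scavenger receptor (GENCODE M21, 1:120474538-120505024), was low, at 26.2 CPM after PBS in 11 barcodes and 32.5 CPM after bleomycin in 8 barcodes (log2 ratio 0.23, 95% CI -0.20 to 0.66). A single bleomycin barcode held 55.7% of its UMIs in the myeloid barcodes of that library. Ear2, an eosinophil-associated ribonuclease with near-identical paralogs (14:44102654-44103534), was at 181 CPM in 48 barcodes and 167 CPM in 72 (log2 ratio -0.11, 95% CI -0.33 to 0.11). For neither Marco nor Ear2 did the interval of the ratio exclude 0. Chil3, a chitinase-like protein that also has close paralogs (3:106147554-106167564), was at 804 CPM in 21 PBS barcodes and 1070 CPM in 60 bleomycin barcodes (log2 ratio 0.41, 95% CI 0.31 to 0.51). Without the barcodes with fibroblast RNA, Chil3 was at 1988 and 1960 CPM (log2 ratio -0.02) and Ear2 at 398 and 312 CPM (log2 ratio -0.34, 95% CI -0.58 to -0.10). Reads could be split among the copies of Ear2 and Chil3, so their levels are uncertain.

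C1qa, a subunit of complement C1q (4:136895917-136898803), is also a gene of the rule. It was at 703 CPM in 28 PBS barcodes and 1288 CPM in 125 bleomycin barcodes (log2 ratio 0.86, 95% CI 0.76 to 0.97). Mrc1, the mannose receptor, which alveolar macrophages express too (2:14229392-14332057), was at 265 CPM in 41 barcodes and 323 CPM in 114 (log2 ratio 0.27, 95% CI 0.10 to 0.45). Ccr2, the receptor for CCL2 (9:124101950-124113557), was at 173 CPM in 35 barcodes and 186 CPM in 58 (log2 ratio 0.10, 95% CI -0.12 to 0.32). In barcodes under 0.2% fibroblast UMIs the log2 ratio was 1.06 for C1qa (711 and 1493 CPM), which is a description since C1qa helped to choose the barcodes, 0.04 for Mrc1 and -0.05 for Ccr2.

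**Figure D1:**
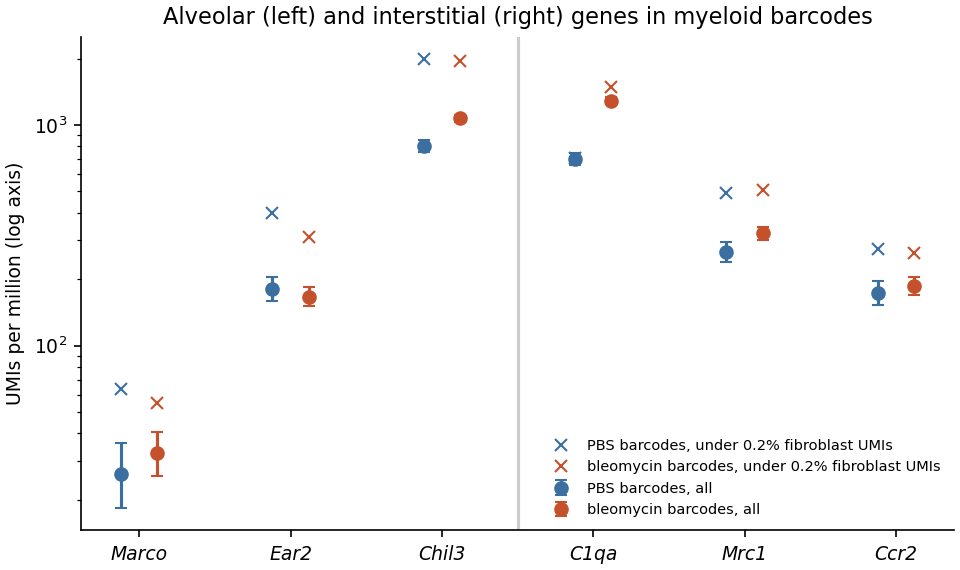
Levels of Marco, Ear2, Chil3, C1qa, Mrc1 and Ccr2 in CPM on a log axis, for the 90 PBS and 212 bleomycin myeloid barcodes, with exact 95% intervals for counting error (circles), and for the 51 and 84 barcodes under 0.2% fibroblast UMIs (crosses). C1qa, which also helped to choose the barcodes, is at 703 and 1288, and Marco, Ear2 and Ccr2 have overlapping intervals.

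Barcodes with interstitial genes alone were more common after bleomycin. To count genes at one depth in both libraries, each barcode was thinned to 1000 UMIs. Then 26 of 90 PBS barcodes (28.9%, 95% CI 19.8 to 39.4%) and 118 of 212 bleomycin barcodes (55.7%, 95% CI 48.7 to 62.5%) held interstitial genes alone. Alveolar genes alone were held by 12 PBS barcodes (13.3%, 95% CI 7.08 to 22.1%) and 20 bleomycin barcodes (9.43%, 95% CI 5.86 to 14.2%). Both groups were held by 16 and 29 barcodes, and neither by 36 (40.0%) and 45 (21.2%). These shares are a description, since C1qa can admit a barcode under the rule. After thinning C1qa was found in 24 PBS and 100 bleomycin barcodes (26.7% and 47.2%). Mrc1 was found in 16 and 53 barcodes and Ccr2 in 10 and 26. At full depth interstitial genes alone were held by 33.3% and 57.1%, alveolar genes alone by 18.9% (95% CI 11.4 to 28.5%) and 5.66% (95% CI 2.96 to 9.68%), so that the gap in alveolar genes alone was outside counting error at full depth and not at equal depth.

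**Figure D2:**
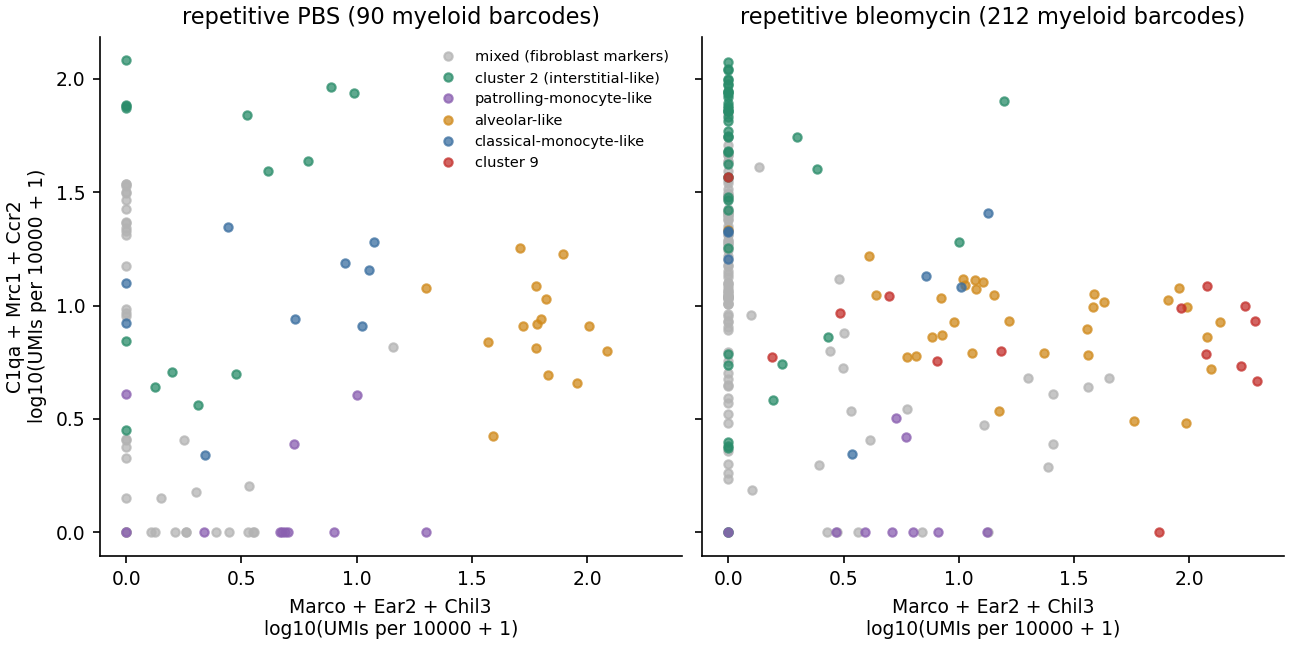
Each point is 1 myeloid barcode, with its UMIs per 10000 of Marco, Ear2 and Chil3 on the horizontal axis and of C1qa, Mrc1 and Ccr2 on the vertical axis, both as log10 of the value plus 1, in the PBS (90 barcodes) and bleomycin (212 barcodes) libraries, with colours for the classes of clusters described below. Barcodes with interstitial genes alone lie along the vertical axis and are 55.7% of bleomycin barcodes after thinning.

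The longer marker lists gave the spread around these 6 genes. Over all 10794 genes with at least 20 UMIs, 225 (2.08%) were at least 2-fold higher after bleomycin and 256 (2.37%) at least 2-fold lower, with a median log2 ratio of -0.05. At any size of ratio 4774 of these genes were higher and 6020 lower. List counts of higher or lower genes over all myeloid barcodes stand against these numbers. Of 11 alveolar genes 2 were at least 2-fold higher and 3 at least 2-fold lower (median log2 ratio -0.11). Fabp4, a fatty acid binding protein, was at 54.5 CPM after PBS and 185 CPM after bleomycin, and Atp6v0d2, a subunit of the vacuolar proton pump, at 130 and 425 CPM. Krt79, a keratin found in alveolar macrophages, was at 99.1 CPM after PBS and 1.65 CPM after bleomycin (log2 ratio -3.23, 95% CI -3.41 to -2.89). Cidec, a lipid droplet protein, had 66 and 17 UMIs, and Ear1, a paralog of Ear2, at 64.4 and 16.9 CPM. The alveolar list was thus split, with Krt79, Cidec and Ear1 low after bleomycin while Fabp4 and Atp6v0d2 were high. Of 13 interstitial genes 10 were higher and 3 lower, with 1 at least 2-fold higher, Ms4a7, a membrane protein of tissue macrophages, at 60.1 and 221 CPM. Under 0.2% fibroblast UMIs 5 of 12 were at least 2-fold higher (median log2 ratio 0.39), against 3.23% of all genes, and the 5 included C1qa, a gene of the rule, with C1qb and C1qc. In all barcodes C1qb and C1qc, which form C1q with C1qa, had log2 ratios of 0.92 and 0.85, and Lyve1, a hyaluronan receptor of perivascular macrophages, was at 16.3 and 3.70 CPM.

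Among the macrophage and pathway lists, genes associated with macrophages of fibrotic tissue had the highest median ratio. All 16 listed genes had higher levels after bleomycin, and 13 were at least 2-fold higher, a share of the list to be read against the background of 2.08%. The median log2 ratio of the list was 1.45, or 1.37 with Cd5l set to the bound from 3 counts after PBS. Spp1, or osteopontin, a secreted matrix protein (5:104435118-104441050), was at 74.3 CPM in 15 PBS barcodes and 6104 CPM in 109 bleomycin barcodes (log2 ratio 6.18, 95% CI 5.93 to 6.43). Fabp5, a fatty acid binding protein (3:10012548-10016607), was at 48.1 CPM and 1469 CPM (log2 ratio 4.67, 95% CI 4.38 to 4.97). Gpnmb, a glycoprotein of lysosomes and melanosomes, was at 22.6 and 321 CPM (log2 ratio 3.34). Trem2, a lipid receptor that signals through TYROBP, was at 36.8 and 307 CPM (log2 ratio 2.76). Ctsk, a collagen-degrading cathepsin, was at 63.0 and 442 CPM (log2 ratio 2.63). The level intervals of the libraries did not overlap for these 5 genes, but they cover counting error only. The 5 genes were picked at the high end of the list, and the share of all genes without overlap was not computed.

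Further members of the fibrosis-associated list were closer together. Apoe, a lipid carrier, was at 4179 and 8664 CPM, and Cd63, a tetraspanin of late endosomes, at 361 and 979 CPM. Lgals3, or galectin-3, was at 625 and 1835 CPM and Mmp12, the macrophage elastase, at 112 and 350 CPM. The growth factor genes of the list were not among the 13, with Pdgfb at 24.8 and 42.8 CPM and Pdgfa at 33.3 and 34.6 CPM. Arg1, which encodes arginase, was seen with 1 UMI after PBS and 33 after bleomycin, and Cd5l, an inhibitor of macrophage apoptosis, with 0 and 44 UMIs.

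The ratios of Spp1, Fabp5, Gpnmb and Trem2 kept their order without the barcodes with fibroblast RNA. In barcodes under 0.2% fibroblast UMIs, 252 of 7808 genes (3.23%) were at least 2-fold higher after bleomycin and 349 (4.47%) at least 2-fold lower. Of the 16 fibrosis-associated genes 13 were at least 2-fold higher (median log2 ratio 2.10), but not the same 13 as over all myeloid barcodes. Cd5l and Arg1, which had no UMI after PBS there, were again among them. Pdgfa was past 2-fold in these barcodes (log2 ratio 1.10), while Cd9 (0.78), Lpl (0.84) and Pdgfb (0.73) were within it. Spp1 was at 190 and 9968 CPM there (log2 ratio 5.64, 95% CI 5.38 to 5.92) and Fabp5 at 104 and 2148 CPM (log2 ratio 4.24). Reference fibroblasts of the bleomycin library also held Spp1, at 1322 CPM against 1.31 CPM after PBS, and 20.2% of them had a UMI of it at a median depth of 4515 UMIs. Fabp5 was at 17.9 CPM in those fibroblasts and Trem2 at 2.03 CPM.

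Spp1 was concentrated in a subset of the bleomycin barcodes. At full depth 51.4% had a UMI and after thinning to 1000 UMIs 41.0% (95% CI 34.3 to 48.0%), against 4.44% (95% CI 1.22 to 11.0%) of PBS barcodes. The count reached 2561 UMIs in 1 barcode, the median over all bleomycin barcodes was 1, and the 10 highest barcodes held 61.0% of the UMIs. At least 50 Spp1 UMIs per 10000 were found in 56 of 212 bleomycin barcodes (26.4%), 24 of them under 0.2% fibroblast UMIs, and in 0 of 90 PBS barcodes. Those 56 held 92.7% of the Spp1 UMIs in the bleomycin myeloid barcodes. This limit was chosen after the values were seen.

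Genes of the lysosome, where ingested material is degraded, were higher when pooled over all myeloid barcodes, though not in every class described below. All 16 had higher levels after bleomycin, and 9 were at least 2-fold higher (median log2 ratio 1.10), against 2.08% of all genes. Ctsd, the aspartic protease cathepsin D (7:142375911-142388038), was at 558 CPM in 70 PBS barcodes and 4392 CPM in 183 bleomycin barcodes (log2 ratio 2.96, 95% CI 2.85 to 3.06). Ctsb, cathepsin B, was at 519 and 1621 CPM, and Psap, the precursor of the saposins that help to degrade sphingolipids, at 1032 and 3014 CPM. The other 6 past 2-fold were the proteases Ctss, Ctsl and Ctsz, the lipase Lipa, the hexosaminidase subunit Hexa and progranulin (Grn), with log2 ratios of 1.05 to 1.33. Lamp1, a membrane protein of the organelle whose promoter is shown above, was at 466 and 671 CPM (log2 ratio 0.52), and Laptm5 had the lowest ratio of the list, at 677 and 791 CPM. Under 0.2% fibroblast UMIs all 16 were again higher and 9 at least 2-fold (median log2 ratio 1.14), against 3.23% of all genes.

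**Figure D3:**
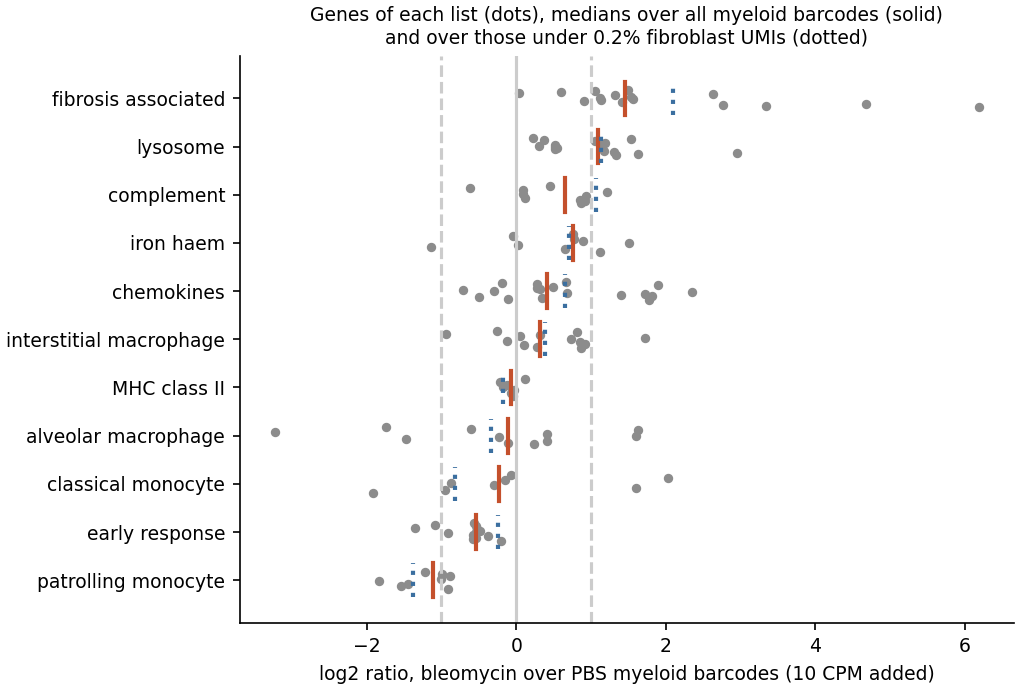
Log2 ratios of bleomycin over PBS (10 CPM added) for the genes of each list, 1 dot per gene, with the list's median over all myeloid barcodes (solid line) and over those under 0.2% fibroblast UMIs (dotted line). The fibrosis-associated (median 1.45) and lysosome (median 1.10) lists lie to the right and the patrolling monocyte list (median -1.11) to the left.

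Patrolling monocyte genes were lower after bleomycin. All 8 genes of patrolling monocytes, the cells that crawl along the inner wall of vessels, were lower, 5 of them at least 2-fold, against the background of 2.37% (median log2 ratio -1.11). Under 0.2% fibroblast UMIs 6 were at least 2-fold lower (median log2 ratio -1.38). Adgre4, an adhesion receptor, was at 161 CPM after PBS and 37.9 CPM after bleomycin (log2 ratio -1.83, 95% CI -2.13 to -1.53). Treml4, a receptor of the TREM family, was at 63.7 and 15.2 CPM, Cd300e, an activating receptor, at 46.7 and 10.7 CPM, and Itgal, the LFA-1 integrin chain, at 219 and 88.1 CPM. Of 8 classical monocyte genes 2 were at least 2-fold higher and 1 lower (median log2 ratio -0.22), but under 0.2% fibroblast UMIs 1 of 7 was higher and 3 lower (median log2 ratio -0.82). Ly6c2, the surface antigen of classical monocytes, was at 92.7 and 17.3 CPM, but 1 PBS barcode held 78.6% of its UMIs in the PBS myeloid barcodes. Plac8 was at 431 and 217 CPM. The 2 higher genes, Fn1 (417 and 1733 CPM) and Vcan (7.78 and 44.0 CPM), encode matrix proteins, and Fn1 was at 787 and 2953 CPM in reference fibroblasts. Fn1 was at 253 and 1354 CPM under 0.2% fibroblast UMIs (log2 ratio 2.37). Vcan was at 7.29 and 4.43 CPM under 0.2% fibroblast UMIs.

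The counts of the lists that follow stand against 2.08% of all genes at least 2-fold higher and 2.37% at least 2-fold lower. Genes of antigen presentation were nearly level when pooled over all myeloid barcodes. None of the 7 MHC class II genes reached 2-fold (median log2 ratio -0.08), with H2-Aa at 2468 and 2401 CPM and the invariant chain Cd74 at 6919 and 5955 CPM. Of 9 iron genes 2 were at least 2-fold higher and 1, Cd163, lower. The higher ones were Ftl1, the ferritin light chain, which has many pseudogenes, at 3930 and 11228 CPM, and Hmox1, heme oxygenase, at 37.5 and 93.4 CPM. Hmox1 was within 2-fold under 0.2% fibroblast UMIs (log2 ratio 0.63). In those barcodes 3 of 8 iron genes were at least 2-fold higher and 1 lower, against 3.23% and 4.47% of all genes. The 3 were Fth1, the ferritin heavy chain (log2 ratio 1.99), Ftl1 (1.79) and Blvrb (1.27). Of 14 lipid-handling genes 5 were at least 2-fold higher and 1 lower (median log2 ratio 0.66). Scd1, the stearoyl-CoA desaturase, was at 14.2 and 72.8 CPM, whereas Fabp1 was at 74.3 and 5.76 CPM and Pparg, the nuclear receptor that drives the alveolar program, at 162 and 88.9 CPM. The lipid list therefore held 3 fatty acid binding proteins of which Fabp4 and Fabp5 were higher and Fabp1 lower.

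Of 18 chemokine genes 6 were at least 2-fold higher and none lower (median log2 ratio 0.42), against 2.08% and 2.37% of all genes. Ccl6 was at 483 and 1719 CPM (log2 ratio 1.81), and Ccl12, a ligand of CCR2, at 26.2 and 174 CPM (log2 ratio 2.35). Ccl12 was within 2-fold under 0.2% fibroblast UMIs, at 52.9 and 97.5 CPM (log2 ratio 0.77). Ccl2, another ligand of CCR2, differed more with the barcodes used: it was at 52.4 and 202 CPM in all (log2 ratio 1.77) and at 83.9 and 70.1 CPM in those under 0.2% fibroblast UMIs (log2 ratio -0.23). Of the 6 genes Ccl6 alone was still at least 2-fold higher in those barcodes (log2 ratio 1.38), with log2 ratios of 0.23 for Ccl7, 0.94 for Ccl8 and -0.39 for Cxcl9. Other chemokine genes were higher there, so that 5 of 16 were at least 2-fold higher and 1 lower, against 3.23% and 4.47% of all genes. Among them were Ccl4, at 71.1 and 435 CPM (log2 ratio 2.46), and Ccl3 (log2 ratio 1.45). Of 18 cytokine and growth factor genes 3 were at least 2-fold higher and 1 lower (median log2 ratio 0.13). Igf1, insulin-like growth factor 1, was at 77.8 and 326 CPM, Gdf15, a stress-induced cytokine, at 19.1 and 65.8 CPM and Vegfa at 43.2 and 16.0 CPM. Il1b, the inflammatory cytokine, was at 615 and 357 CPM, within 2-fold.

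Of 15 phagocytic receptors Clec4n (dectin-2; 73.6 and 221 CPM) and Msr1 (a scavenger receptor; 18.4 and 60.5 CPM) were at least 2-fold higher, and Cd163, the haemoglobin scavenger receptor, was lower (18.4 and 2.88 CPM). Of 10 complement genes 1 was past 2-fold, Cfb, a factor of the alternative pathway, at 34.7 and 93.4 CPM. Under 0.2% fibroblast UMIs 5 of 9 complement genes were at least 2-fold higher and 1 lower (median log2 ratio 1.06), against 3.23% and 4.47% of all genes, and the 5 included C1qb, C1qc and the rule gene C1qa. Of 15 growth factor and chemokine receptors 1 was at least 2-fold higher, Csf2rb2 at 5.66 and 32.5 CPM. Of 13 interferon genes only Ifit1 was at least 2-fold higher, with 5 and 47 UMIs. Among 15 transcription factors Bhlhe41 was higher (21.2 and 65.4 CPM, but log2 ratio 0.87 under 0.2% fibroblast UMIs) and Nr4a1, needed by patrolling monocytes, lower (504 and 191 CPM). Spi1, which encodes PU.1, was at 306 and 258 CPM. All 13 early-response genes had lower levels after bleomycin (median log2 ratio -0.54), against 6020 of all 10794 genes, with Nr4a1 and Klf2 past 2-fold. Under 0.2% fibroblast UMIs, however, 5 of the 13 were higher, where the median log2 ratio of all tested genes was -0.13. Summed, the early-response genes were at 9009 and 6127 CPM in myeloid barcodes. In reference fibroblasts they were lower after bleomycin too, at 16526 and 8808 CPM, with Nr4a1 at 731 and 248 CPM. Of 12 cell-cycle genes 11 were lower and 1, Stmn1 (165 and 76.9 CPM), at least 2-fold (median log2 ratio -0.47). Under 0.2% fibroblast UMIs 7 of the 12 were at least 2-fold lower and none higher (median log2 ratio -1.08), against 4.47% of all genes, while as a mean over barcodes the list's median was -0.05.

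Clustering without the listed genes split the 302 myeloid barcodes into 10 clusters. Clusters 1, 3 and 4 had fibroblast genes as their leading markers, and 39 of their 40 PBS barcodes and all 106 bleomycin barcodes had at least 0.2% fibroblast UMIs, so they are called mixed. They held 40 of 90 PBS barcodes (44.4%, 95% CI 34.0 to 55.3%) and 106 of 212 bleomycin barcodes (50.0%, 95% CI 43.1 to 56.9%), though at resolution 2 the PBS share with that name was 5.56%. Alveolar macrophage-like barcodes (clusters 6, 8 and 10) were 15 (16.7%, 95% CI 9.64 to 26.0%) and 32 (15.1%, 95% CI 10.6 to 20.6%). Cluster 2, which had 8 of 13 interstitial and 3 dendritic cell markers raised, is kept by its number, because its 10 leading genes held no interstitial marker but included Sftpc of epithelium and Siglech of plasmacytoid dendritic cells. It held 15 (16.7%) and 44 (20.8%). Patrolling monocyte-like barcodes (cluster 5) were 11 (12.2%, 95% CI 6.26 to 20.8%) and 9 (4.25%, 95% CI 1.96 to 7.91%), and classical monocyte-like barcodes (cluster 7) were 9 (10.0%, 95% CI 4.68 to 18.1%) and 7 (3.30%, 95% CI 1.34 to 6.68%). The intervals overlapped in each of these classes at resolution 1. At resolution 2 those of clusters that passed the patrolling monocyte rule did not (22.8 to 42.9% and 3.30 to 10.3%). These clusters included 1 with 18 PBS and 4 bleomycin barcodes that was led by endothelial genes such as Cldn5. The other held 11 and 9 barcodes, the same counts as at resolution 1. Cluster 9, which stayed unnamed, held 0 PBS barcodes (upper end of the exact interval 4.02%) and 14 bleomycin barcodes (6.60%, 95% CI 3.66 to 10.8%). With 1 library per condition a cluster of 1 library may be that library.

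**Figure D4:**
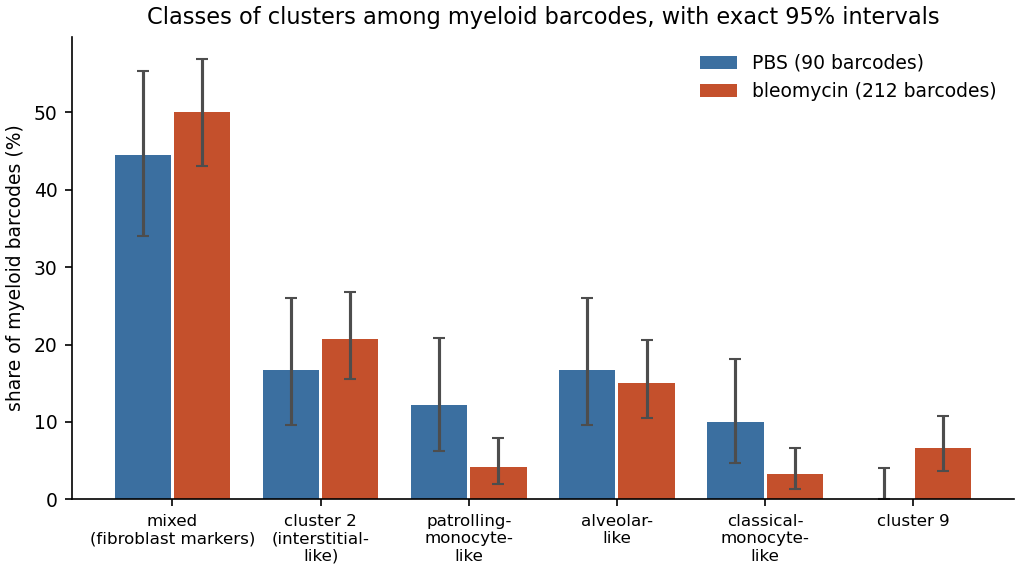
Share of the 90 PBS and 212 bleomycin myeloid barcodes in each class of clusters, in percent, with exact 95% intervals. At the resolution of 1 shown, the mixed class holds 44.4% and 50.0%, and cluster 9 holds bleomycin barcodes alone (6.60%).

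At resolution 1 alveolar macrophage-like barcodes of the libraries fell mostly in different clusters, but at resolution 0.5 a single alveolar-like cluster held 13 PBS and 19 bleomycin barcodes. At resolution 1, of the 15 PBS barcodes 12 were in cluster 10. Of the 32 bleomycin barcodes 18 were in cluster 6 and 13 in cluster 8, which was led by cell-cycle genes. Over these barcodes 299 of 5252 genes (5.69%) were at least 2-fold higher after bleomycin and 468 (8.91%) at least 2-fold lower. Of the listed alveolar genes 2 of 11 were higher and 3 were at least 2-fold lower (median log2 ratio -0.43). Chil3 was at 5014 CPM after PBS and 3841 CPM after bleomycin (log2 ratio -0.38, 95% CI -0.49 to -0.27), and Ear2 at 774 and 522 CPM. Marco was at 138 and 126 CPM, and Mrc1 at 812 and 708 CPM, with ratios whose intervals included 0. C1qa was at 0 UMIs in the PBS barcodes and 12 in the bleomycin barcodes, so these barcodes had almost none of the leading interstitial gene. Of the 13 listed interstitial genes only 4 had enough UMIs in both libraries together to be tested here. Among these 4, 3 were at least 2-fold higher after bleomycin (median log2 ratio 2.39), against 5.69% of all genes. The class held 210600 UMIs after PBS and 501644 after bleomycin, so a gene nearly absent after PBS could pass on bleomycin UMIs alone. The count therefore cannot show whether the interstitial list differed in this class.

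Within the alveolar macrophage-like class Krt79 and Fabp1 were detected in all PBS barcodes and in few bleomycin barcodes. Krt79 was found in 15 of 15 PBS barcodes (584 CPM) and 3 of 32 bleomycin barcodes (5.98 CPM). Fabp1 was found in 15 of 15 (499 CPM) and 4 of 32 (27.9 CPM). Spp1 was found in 11 of 15 (323 CPM, 95% CI 251 to 409) and 32 of 32 (12310 CPM, 95% CI 12004 to 12621). The median depth of the class was 12628 UMIs after PBS and 16643 after bleomycin, and that of cluster 8 was 6202 UMIs. Fabp5 was at 223 and 2906 CPM, Ctsd at 2521 and 9371 CPM, and Apoe at 109 and 1092 CPM. Trem2 was at 23.7 and 307 CPM, and Gpnmb at 61.7 and 357 CPM. All 13 fibrosis-associated genes with enough UMIs were higher, 10 of them at least 2-fold (median log2 ratio 2.35), against 5.69% of all genes. Of 16 lysosome genes 14 were higher and 7 at least 2-fold (median log2 ratio 0.80). Fibroblast genes also differed here, with 4 of 7 at least 2-fold higher (median log2 ratio 1.35), and 5 bleomycin and 0 PBS barcodes had at least 0.2% fibroblast UMIs. The part of this RNA in the ratios was not tested. Mmp12, with 0 and 201 UMIs, was carried by 6 bleomycin barcodes. Pparg was at 408 and 197 CPM.

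Cluster 2 also held Spp1 and lysosomal genes at higher levels after bleomycin, on another base. Among its 4704 tested genes 476 (10.1%) were at least 2-fold higher and 192 (4.08%) at least 2-fold lower. C1qa was at 2086 CPM after PBS and 3366 CPM after bleomycin, Mrc1 at 531 and 357 CPM and Ccr2 at 411 and 465 CPM. Spp1 was at 32.9 and 1209 CPM, in 2 of 15 and 16 of 44 barcodes. This bleomycin level was below the 1322 CPM of reference fibroblasts in the same library, and 1 of the 44 barcodes reached 50 Spp1 UMIs per 10000. Ctsd was at 54.8 and 1911 CPM, and Trem2 at 76.7 and 415 CPM. Ms4a7 was at 126 and 541 CPM, and Cd209a, a lectin of dendritic cells and monocyte-derived cells, at 493 and 33.1 CPM. All 13 tested fibrosis-associated genes were higher, 10 of them at least 2-fold, but 10 of the 44 bleomycin barcodes and 0 of the 15 PBS barcodes had at least 0.2% fibroblast UMIs, and Fn1 was at 16.4 and 1236 CPM. At resolution 2 there were instead an interstitial macrophage-like cluster (7 and 33 barcodes) and a dendritic cell-like cluster (8 and 10 barcodes). Their counts do not add up exactly to those of cluster 2.

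Cluster 9 had the highest Spp1 level of any class, 34334 CPM in 14 of 14 barcodes. Fabp5 was at 5487 CPM, Gpnmb at 1934 CPM, Trem2 at 985 CPM and Ctsd at 18666 CPM. Its barcodes held genes of both groups, with Chil3 at 2912 CPM, Ear2 at 302 CPM and C1qa at 701 CPM, and no UMI of Marco, Krt79 or Fabp1. All 44 Cd5l UMIs of the bleomycin myeloid barcodes were here, in 8 barcodes. Of the 14 barcodes 7 had at least 0.2% fibroblast UMIs.

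**Figure D5:**
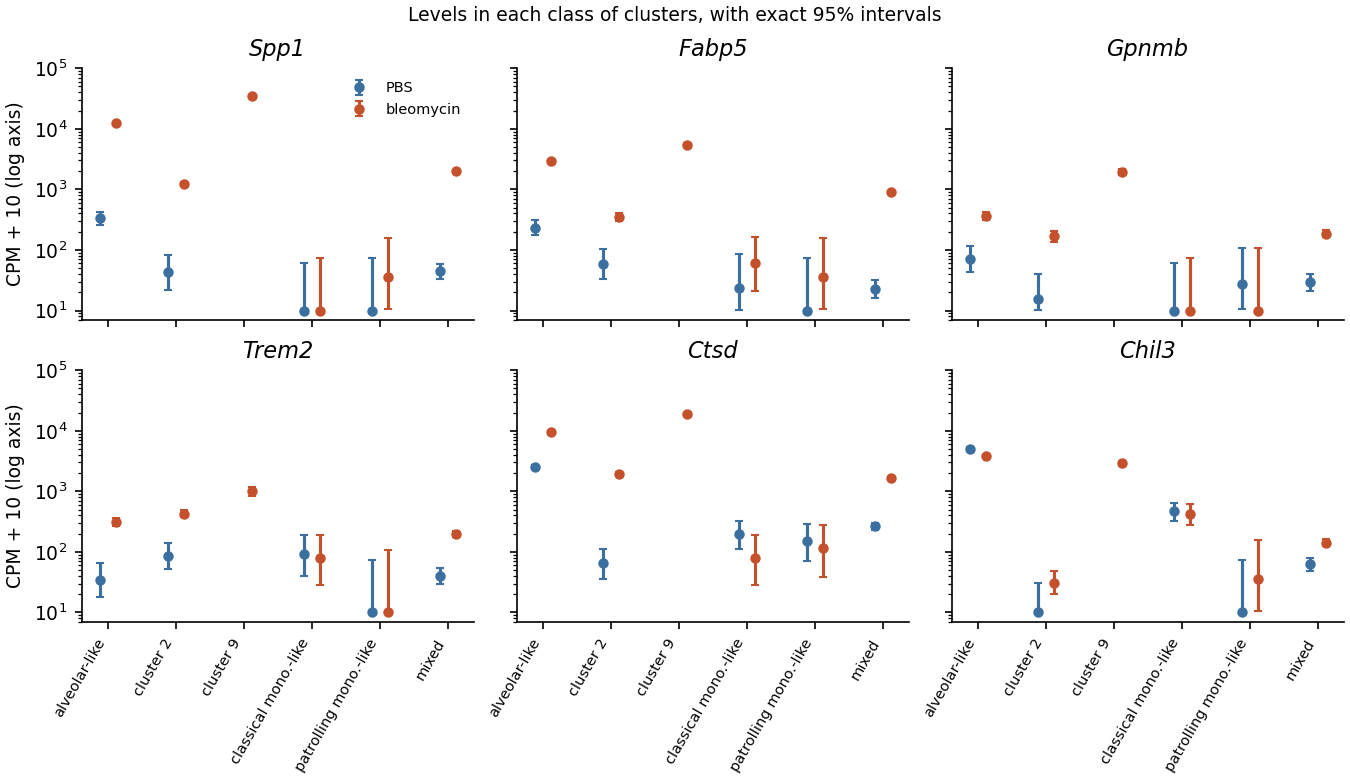
Levels of Spp1, Fabp5, Gpnmb, Trem2, Ctsd and Chil3 in CPM with 10 added, on a log axis with exact 95% intervals, in each class of clusters, for the PBS and bleomycin libraries. Before that addition Spp1 is at 34334 CPM in cluster 9 and 12310 CPM in bleomycin alveolar macrophage-like barcodes, against 323 CPM in their PBS counterparts, and has at most 1 UMI in the monocyte-like classes of either library.

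The monocyte-like barcodes differed from the macrophage-like ones. Spp1 was at 0 UMIs in classical monocyte-like barcodes of both libraries (upper ends of the exact intervals 49.9 CPM after PBS and 63.6 CPM after bleomycin), and at 0 and 1 UMI in patrolling monocyte-like barcodes. Lysosome genes were nearly level in classical monocyte-like barcodes, with 0 of 13 past 2-fold (median log2 ratio 0.07). In patrolling monocyte-like barcodes 1 of 9 was at least 2-fold higher and 1 lower (median log2 ratio 0.14), against 4.65% and 7.48% of all genes tested there. In classical monocyte-like barcodes Ccr2 was at 974 and 1413 CPM and Plac8 at 3856 and 3687 CPM. MHC class II genes had a median log2 ratio of 1.64 over 5 tested genes in these 9 and 7 barcodes, and of -3.85 over 3 tested genes in the 11 and 9 patrolling monocyte-like barcodes. In patrolling monocyte-like barcodes Ear2 was at 491 and 442 CPM, so Ear2 is not confined to the alveolar class. This was 10.9% of the Ear2 UMIs of all myeloid barcodes after PBS and 4.20% after bleomycin. Adgre4 was at 1387 and 884 CPM there (log2 ratio -0.64), a smaller difference than over all myeloid barcodes.

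Markers of other cell types moved between the libraries too. Endothelial genes summed to 456 CPM after PBS in 26 barcodes and 47.7 CPM after bleomycin in 35, with all 6 tested genes at least 2-fold lower and Cldn5 from 5 PBS barcodes at 149 CPM. More than 2 endothelial UMIs were found in 8 PBS and 6 bleomycin barcodes. Plasma cell genes summed to 55.9 and 373 CPM, with Igkc at 1.42 and 232 CPM. In reference fibroblasts Igkc was at 2.40 and 426 CPM, higher than in the myeloid barcodes of the same library. Epithelial genes summed to 76.4 and 208 CPM, and 1 bleomycin barcode held 87.4% of the Sftpc UMIs in the myeloid barcodes of that library. Neutrophil genes summed to 115 and 123 CPM, T cell genes to 29.7 and 60.5 CPM and B cell genes to 21.2 and 36.6 CPM. In the myeloid barcodes NK cell genes had 1 UMI in each library and erythrocyte genes 2 and 0 UMIs, while Ncr1, Gzma, Nkg7 and Prf1 of NK cells were at 0 in both. Mast cell and basophil genes summed to 9.91 and 4.94 CPM. Of 8 dendritic cell genes Cd209a was at least 2-fold lower (109 and 9.88 CPM) and Xcr1 higher, with 5 UMIs in 2 barcodes and 77 in 7. The Xcr1 ratio was within 2-fold under 0.2% fibroblast UMIs (log2 ratio 0.90) and turned after thinning (log2 ratio -0.12). Without the barcodes with more than 2 endothelial UMIs the log2 ratio was 0.29 for the alveolar and 0.68 for the interstitial genes, and 224 genes were at least 2-fold higher and 218 lower. The part of the other cell types in the results was not tested.

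Among genes on no list, those with the largest ratios included several with known roles in macrophages. Pdpn, a mucin-like glycoprotein, was at 10.6 CPM in 10 PBS barcodes and 163 CPM in 89 bleomycin barcodes (log2 ratio 3.07). Acp5, the tartrate-resistant acid phosphatase of osteoclasts and macrophages, had 17 UMIs in 14 PBS barcodes and 389 in 102 bleomycin barcodes (log2 ratio 2.95). Syngr1, a vesicle protein, had 0 UMIs after PBS and 184 in 48 barcodes after bleomycin. Mfge8, a bridge that helps phagocytes to bind dying cells, was at 98.3 and 484 CPM. Others rested on single barcodes: 99.8% of the Mucl1 UMIs and 95.3% of the Retnla UMIs in the bleomycin myeloid barcodes came from 1 barcode each. The lowest ratios were of vascular genes found in few PBS barcodes, such as Adgrf5, an adhesion receptor of endothelium, with a log2 ratio of -2.64. Of the others, Dusp16, a phosphatase of MAP kinases, was at 265 and 65.4 CPM in 68 barcodes of each library, and Kcnip4 was at 660 and 181 CPM in 18 and 17 barcodes. Of the genes that set myeloid barcodes apart from fibroblasts in both libraries, Lyz2, a lysozyme with a close paralog, was at 4662.5 CPM after PBS and 14770 CPM after bleomycin, with 10.5 and 51.5 CPM in reference fibroblasts.

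The same rule kept 23 barcodes after a single dose of PBS and 39 after a single dose of bleomycin. There Spp1 was at 14.8 and 664 CPM, below its level of 4195 CPM in the fibroblasts of the single bleomycin library, and Fabp5 was at 11.1 and 64.0 CPM, Gpnmb at 1 UMI in each library and Chil3 at 136 and 16.5 CPM. Trem2 was at 88.5 and 80.4 CPM and Ctsd at 299 and 366 CPM. C1qa was at 1394 and 1055 CPM and Lyz2 at 4801 and 4807 CPM, and 12 of the 23 and 27 of the 39 barcodes had at least 0.2% fibroblast UMIs.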

How the data were processed

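Droplet single-cell RNA sequencing was used in 6 libraries, of which the repetitive PBS and repetitive bleomycin libraries were analysed. The tables the authors deposited hold unnormalized UMI counts of each gene in each barcode, and the submitters' notes name Cell Ranger 3.0.1, Seurat 3 and mm10. Counts were read with Python 3.11.15, numpy 2.4.6, pandas 2.3.3 and scipy 1.17.1. UMIs were summed over the myeloid barcodes of a library and scaled to CPM. Ratios were taken with 10 CPM added, over genes with at least 20 UMIs in both libraries together, and 2-fold was used as the limit. Levels have exact Poisson intervals, ratios conditional binomial ones and shares Clopper-Pearson ones, at 95%. Reference fibroblasts had at least 1000 UMIs, at least 5 UMIs of Col1a2, Mfap4 and Pdgfra together, under 3 of Tyrobp and Fcer1g, and none of Cd3e, Cd79a, Pecam1 or Epcam.

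Clusters of myeloid barcodes were found with igraph 0.11.9 (Leiden algorithm, 2000 variable genes without listed, mitochondrial and ribosomal genes, 20 components with scikit-learn 1.9.0, 15 neighbours, resolution 1). A cluster was called like a cell type when at least 3 and at least 50% of the tested markers were detected in at least 20% of its barcodes at 2-fold or more over the others. Figures were drawn with matplotlib 3.10.9. The statistics were tested on simulated data. No doublet caller was run. Members, 29 gene lists and rules were chosen with earlier results of these data known. Named genes were the rule genes, Marco, Ear2, Chil3, C1qa, Mrc1 and Ccr2, in each list the 2 with the highest and the 2 with the lowest ratio, among unlisted genes the 10 at either end whose level in the library where they are higher was at least 2 times that of its fibroblasts, and the 10 most above fibroblasts in each library. Other genes were named after their values were seen. Removal of barcodes with at least 0.2% fibroblast UMIs or more than 2 endothelial UMIs, and values within classes, were added after seeing the data. Sequences came from RefSeq (GRCm38.p6) and positions from GENCODE M21.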

Additional observations from a re-analysis of the deposited data

Results flagged for a closer look

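The rule also found barcodes in the 4 other libraries. After a single dose of bleomycin 3.98% (95% CI 2.84 to 5.40%) of barcodes with at least 1000 UMIs met it, above the 2.20% (95% CI 1.40 to 3.28%) after a single dose of PBS, with overlapping intervals. In the organoid libraries 0.0814% (95% CI 0.0222 to 0.208%) met it with normal fibroblasts (4 barcodes) and 0.191% (95% CI 0.107 to 0.315%) with fibrogenic fibroblasts (15 barcodes), and both shares are listed because the counts were over 3. No difference between these libraries was tested, since each condition had 1 library.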

How the results depend on the processing

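No paired analysis was possible because each condition had 1 library, and no replicate could be left out. Of 97 values of the main comparisons under the alternatives, 70 moved by less than their interval or 1.5 times and 27 moved, among them the alveolar ratio, which changed sign. The log2 ratio of the alveolar genes was 0.84 with a stricter rule (at least 6 and 4 UMIs), 0.44 without barcodes with 1% or more fibroblast UMIs, -0.073 without those with 0.2% or more, -0.020 thinned to 1000 UMIs and 0.0058 as a mean over barcodes, and that of the interstitial genes was 0.55 with the stricter rule and 0.54 as a mean. Genes at least 2-fold higher numbered 1404 thinned, 533 with 1 CPM added and 70 with 50 CPM added, and genes at least 2-fold lower 443 without barcodes with 1% or more fibroblast UMIs, 1372 thinned, 614 with 1 CPM and 55 with 50 CPM. The share of myeloid barcodes after PBS was 1.10% with the stricter rule and 0.850% under 0.2% fibroblast UMIs, and after bleomycin 3.16% of barcodes with at least 2000 UMIs, 1.39% with the stricter rule, 1.97% of all barcodes, 1.47% under 1% and 0.952% under 0.2%. The PBS share of clusters with interstitial markers was 7.78% at resolution 2 and 7.78% with listed genes kept. At resolution 2 the PBS share of clusters that passed the patrolling monocyte rule was 32.2%, but this includes a cluster with 18 PBS barcodes led by endothelial genes such as Cldn5, and that of mixed ones was 5.56%, and the bleomycin share of mixed ones was 42.5% at resolution 0.5 and 36.8% at 2. Centring ratios on their median gave 249 higher and 218 lower genes. Of 187 listed or named genes, compared where at least 20 UMIs were left, 3 that were past 2-fold changed sign: Ccl2 (-0.23 under 0.2% fibroblast UMIs), Xcr1 (-0.12 thinned) and Il7r (-0.011 thinned). Vcan (-0.26) and Cxcl9 (-0.39) also changed sign under 0.2% fibroblast UMIs, with fewer than 20 UMIs. Of 317 values of 25 list medians under the alternatives 68 moved, and none past 2-fold changed sign. Some smaller medians did under 0.2% fibroblast UMIs, such as interferon response (0.50 in all barcodes and -0.10) and dendritic cell (0.54 and -0.36). The cause was not tested. Depth limits genes with few UMIs, such as Marco, Arg1 and Cd5l.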
